A study of Mus musculus with 33 samples.

Results

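Regulatory T cells (Tregs) recovered from porcine islet xenografts that had been accepted for 100 days (graft Tregs) were compared with Tregs from the spleen of untouched mice (SP/naive Tregs), gene by gene, by bulk RNA-Seq. The comparison used 6 of the 33 libraries of the series, 3 graft and 3 SP/naive, chosen by their labels, and 25347 of 31054 counted features could be tested. Male DEREG mice (C57BL/6) were the donors in both groups. In this transgenic strain the Foxp3 promoter drives EGFP together with a receptor for diphtheria toxin, so live CD4+GFP+ cells could be sorted as Tregs. Graft donors had 4000 islet equivalents of porcine neonatal islet cell clusters (NICC) placed under the renal capsule. They received 500 µg of MR-1, an antibody to CD154, on days 0, 2, 4 and 6 and 500 µg of CTLA4-Fc, and their cells were collected at day 100. SP/naive donors had neither a transplant nor treatment. Tissue, transplantation and treatment therefore differed together between the groups and cannot be told apart. For this reason the values of the graft Tregs are also given beside those of 2 splenic Treg subsets of tolerant mice, SP/CD127hi and SP/CD127-/lo Tregs, where CD127 is the IL-7 receptor alpha chain.

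Tregs restrain immune responses, and Foxp3 is the transcription factor that defines them. In lymphoid organs most Tregs are resting cells that recirculate, whereas Tregs that settle in non-lymphoid tissues are known to take on a tissue program, with regulators such as Id2 and Gata3, chemokine receptors, retention molecules and receptors for cytokines and alarmins. Cells prepared from a graft under the kidney capsule can bring RNA of kidney epithelium and of other leukocytes with them.

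The labelled cell type was checked first. Foxp3 was at 529, 599.6 and 672 CPM (counts scaled to a common library size with TMM factors) in the graft libraries and at 359, 468 and 353 CPM in the SP/naive libraries. Its log2 fold change was 0.61 ± 0.55 (SE, n = 3 per group, edgeR adjusted p = 0.793). EGFP lay between 67.9 and 91.5 CPM in the graft libraries and between 37.2 and 86.4 CPM in the SP/naive libraries, and Cd4 lay between 94.7 and 121 CPM and between 118 and 241 CPM. All 6 libraries thus held the transcripts that define the sorted cells, and neither Foxp3, EGFP nor Cd4 passed the test between the groups.

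Between 3565636 and 4158539 read pairs were counted on genes in the graft libraries and between 2728119 and 3840011 in the SP/naive libraries. Graft libraries had a count for 11620 to 13838 genes and SP/naive libraries for 12927 to 16699. SP/naive replicate 2 stood apart, with the lowest total, the most genes and the largest share of pairs outside genes (40.2%, against 25.4 to 35.5% in the graft libraries). Between graft replicates the correlation of log2 CPM was 0.844 to 0.859, and between SP/naive replicates it was 0.914 to 0.932. Each library is described as a pool of several mice, and fewer naive spleen mice were used than 3 separate pools would need, so SP/naive libraries may share animals. The p-values below then measure the spread between libraries, which may be partly technical. In these bulk libraries, fewer cells of a type and less RNA per cell cannot be told apart.

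Of the 25347 genes tested, 33 differed between graft and SP/naive Tregs (adjusted p under 0.05 in edgeR's quasi-likelihood test), which is 0.13%. Of these, 19 genes (0.075%) were higher and 14 (0.0552%) were lower in graft Tregs. The higher genes held 6 genes of the mitochondrial genome, 3 genes from lists of other cell types (Kap, Klrk1 and Ccl8) and 10 further nuclear genes, led by AW112010, Id2, Ifngr1 and Ikzf2. Among the lower genes, 13 of 14 had at most 3 counts in every graft library. The libraries of the groups did not overlap for 15 of the 19 higher and 7 of the 14 lower genes, and over all genes tested they did not overlap for 8.15%. Without SP/naive replicate 2, 27 genes were called, of which 23 were among the 33. The split by direction depended on the test, since the likelihood ratio test of edgeR called 5 higher and 22 lower genes and DESeq2 33 and 153, whereas a stricter filter on low counts (10 counts or more in 3 or more libraries) called 6 genes and a fit of only the compared libraries 12, all of them higher. None of the 14 lower calls therefore held under the last 2 settings.

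Id2 encodes an inhibitor of E proteins that marks tissue-adapted lymphocytes. The gene (ENSMUSG00000020644, GRCm38 chromosome 12, 25093799 to 25097140) was at 1108, 1181 and 388 CPM in the graft libraries and at 143, 160.0 and 200 CPM in the SP/naive libraries. Every graft library was above every SP/naive library, although graft replicate 3 was far below the other graft libraries. The means were 892 ± 438 and 168 ± 29.4 CPM (SD, n = 3 each), and the log2 fold change was 2.41 ± 0.45 (SE, edgeR adjusted p = 0.000533). In the spleen of tolerant mice, Id2 was at 619.6, 329 and 264 CPM in SP/CD127hi Tregs and at 297, 226 and 217.5 CPM in SP/CD127-/lo Tregs. Graft replicate 3 fell inside the range of the SP/CD127hi libraries, and the log2 fold change of graft Tregs was 1.14 against SP/CD127hi (edgeR adjusted p = 0.303) and 1.85 against SP/CD127-/lo Tregs (adjusted p = 0.0477). Splenic CD4+ Foxp3- T cells averaged 854 ± 86.9 CPM in tolerant and 460.3 CPM in naive mice, and CD45+CD4- cells 390.3 and 414 CPM, so that SP/naive Tregs were below these other splenic cells and tolerant CD4+ T cells were close to the graft mean.

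Ifngr1 encodes the ligand-binding chain of the interferon gamma receptor. It lies on chromosome 10 (ENSMUSG00000020009, GRCm38, 19591949 to 19610229) and was at 1422, 1182 and 1056 CPM in the graft libraries. The SP/naive libraries held 199.9, 171 and 279.6 CPM, all below the lowest graft library. Its log2 fold change was 2.49 ± 0.51 (SE, edgeR adjusted p = 0.00317), exceeded only by that of Rgs2 among the 14 higher genes with more than 3 counts in all 6 libraries. SP/CD127hi Tregs had 615, 463 and 480.5 CPM and SP/CD127-/lo Tregs 424, 383 and 224 CPM. All 9 splenic Treg libraries were therefore below the 3 graft libraries, yet the log2 fold changes of 1.23 and 1.83 against the tolerant subsets did not pass the test (edgeR adjusted p = 0.328 and 0.134). Without SP/naive replicate 2 the adjusted p of Ifngr1 against SP/naive Tregs was 0.0741.

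Ikzf2 encodes Helios, a transcription factor of the Ikaros family that is carried by most thymus-derived Tregs. It lies on chromosome 1 (GRCm38, 69531214 to 69687245) and was at 6713, 14612 and 7632 CPM in the graft libraries and at 5882, 3819 and 4019 CPM in the SP/naive libraries. The groups did not overlap, but graft replicate 2 stood far above the others. The log2 fold change was 1.08 ± 0.22 (SE, edgeR adjusted p = 0.00353), and without graft replicate 2 it was 0.65 (adjusted p = 0.328). The transcript AW112010 (GRCm38 chromosome 19, 11047612 to 11055808) had the same shape, at 11203, 21736 and 10049 CPM against 6870.2, 6147 and 6851 CPM. Graft replicate 2 was again the highest, and the log2 fold change of 1.11 ± 0.19 (SE, edgeR adjusted p = 6.47e-05) became 0.68 without it (adjusted p = 0.190). Both genes also lost the call with the likelihood ratio test (adjusted p = 0.609 for Ikzf2 and 0.505 for AW112010), DESeq2 (0.36 and 0.152), the stricter filter (0.436 and 0.378), only the compared libraries (0.267 and 0.138) and only the spleen and graft libraries (0.247 and 0.149). Both genes also passed against SP/CD127hi Tregs, with log2 fold changes of 0.95 for Ikzf2 and 0.87 for AW112010 (edgeR adjusted p = 0.0391 and 0.0181), and neither did against SP/CD127-/lo Tregs (0.36 and 0.46, adjusted p = 0.847 and 0.422). Tregs of the graft-draining lymph node (DLN) were sequenced on another instrument and at lower depth. Ikzf2 averaged 11301 CPM in DLN/naive, 8077 CPM in DLN/CD127-/lo and 9451 CPM in DLN/CD127hi Tregs, against 9652 CPM in graft Tregs. AW112010 averaged 5025, 7032 and 6845 CPM in these subsets, against 14329 CPM in graft Tregs.

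Rgs2 encodes a regulator of G protein signaling, which dampens signals from receptors such as those for chemokines. It was at 542, 359 and 74.8 CPM in the graft libraries and at 53.4, 6.09 and 31.3 CPM in the SP/naive libraries. The groups did not overlap, although graft replicate 3 was close to SP/naive replicate 1. The log2 fold change was 3.42 ± 0.79 (SE, edgeR adjusted p = 0.0241), and the call was lost when any of 4 libraries was left out (graft replicates 1 and 2, SP/naive replicates 2 and 3), with adjusted p of 0.0510 to 0.308.

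S100a10, the light chain of the annexin A2 complex, was at 3351, 2838 and 2108 CPM in graft Tregs and at 1247, 791 and 1199 CPM in SP/naive Tregs. Fth1, the heavy chain of the iron store ferritin, was at 2677, 3645 and 1955 CPM against 1205, 770.0 and 1469 CPM. In neither gene did the groups overlap, and the log2 fold changes were 1.36 ± 0.29 and 1.26 ± 0.30 (SE, edgeR adjusted p = 0.0068 and 0.0364). S100a10 lost its call without graft replicate 1 or SP/naive replicate 2 (adjusted p = 0.126 and 0.192), and Fth1 without graft replicate 2 or SP/naive replicate 2 (0.258 and 0.382). Neither gene passed against the splenic subsets of tolerant mice.

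**Figure D1:**
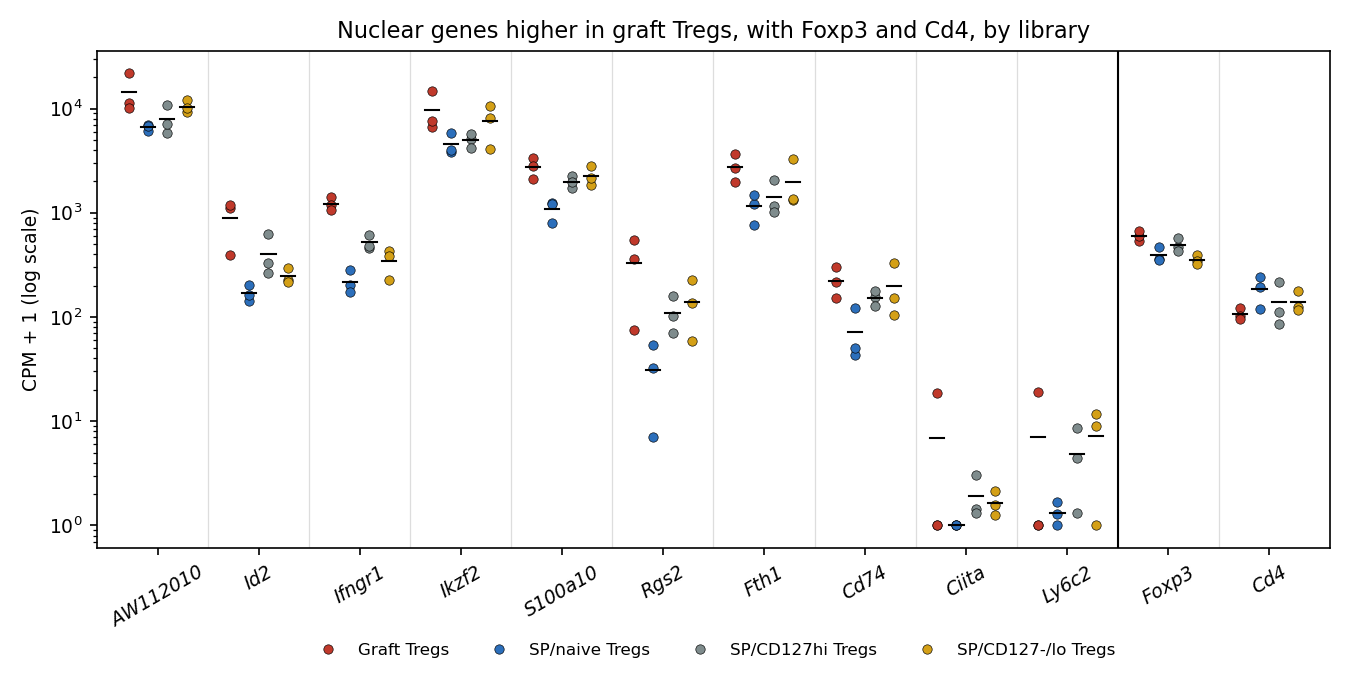
CPM + 1 on a log axis of the 10 further nuclear genes that were higher in graft Tregs than in SP/naive Tregs, with Foxp3 and Cd4 to the right of the line, with 1 point per library and a bar at the mean, for graft, SP/naive, SP/CD127hi and SP/CD127-/lo Tregs. The 3 graft points of Ifngr1 (1056 to 1422 CPM) lie above all 9 splenic points, while graft replicate 3 of Id2 (388 CPM) lies among the SP/CD127hi points.

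Cd74 and Ciita belong to antigen presentation by MHC class II, Cd74 as the invariant chain and Ciita as the transactivator of the class II genes. Cd74 was at 150.3, 300.5 and 215 CPM in graft Tregs and at 42.4, 49.1 and 121 CPM in SP/naive Tregs, without overlap, with a log2 fold change of 1.64 ± 0.39 (SE, edgeR adjusted p = 0.0364). Its call was lost without graft replicate 2, SP/naive replicate 1 or SP/naive replicate 2 (adjusted p = 0.201, 0.269 and 0.252). Ciita rested on 1 library, with 65 counts in graft replicate 2 and 0 counts in the other 5 libraries (at least 6.86-fold higher over the pooled counts, edgeR adjusted p = 0.0406). Without that library its adjusted p was 1, and without SP/naive replicate 1, 2 or 3 it was 0.145, 0.158 and 0.228. The likelihood ratio test (0.0505), the stricter filter (0.397), only the compared libraries (0.622) and only the spleen and graft libraries (0.153) also ended the call. The class II chain gene H2-Ab1, named because the study lists it for graft Tregs, was at 9.48, 0 and 9.24 CPM against 14, 0.677 and 4.29 CPM and did not pass. It was also at -2.14 on the log2 scale against SP/CD127hi Tregs (edgeR adjusted p = 0.25) and was called higher than in SP/CD127-/lo Tregs, whose libraries had 0 counts against 35, 0 and 31 in graft Tregs (adjusted p = 3.18e-05). Ly6c2, which encodes a surface protein of monocytes and memory T cells, also rested on 1 library, with 67, 0 and 0 counts in graft against 1, 2 and 0 counts in SP/naive Tregs. The ratio of its summed levels was 22 (95% counting interval 7.22 to 109.5), with an edgeR adjusted p of 0.0431 (0.853 without graft replicate 1, 0.12 without SP/naive replicate 1 and 0.372 without SP/naive replicate 3). Splenic CD45+CD4- cells, which hold the other leukocytes, had more of Cd74, Ciita and Ly6c2 than graft Tregs, with means in naive and tolerant mice of 2523 and 3473 CPM for Cd74, 238 and 165 CPM for Ciita, and 513 and 459 CPM for Ly6c2. The part of such cells in these differences was not tested.

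The mitochondrial genome encodes 13 subunits of the respiratory chain and of ATP synthase, and 12 of these genes could be tested. Of the 12, 6 were higher in graft Tregs, against 0.075% of all genes tested, and none was lower: mt-Cytb, mt-Nd1, mt-Co1, mt-Nd4, mt-Nd2 and mt-Nd5. The median log2 fold change of the 12 was 1.40, against 0.00 over all genes tested. The cytochrome b gene mt-Cytb was at 23009, 16536 and 18898 CPM in graft Tregs and at 7153, 5904 and 5031 CPM in SP/naive Tregs. The lowest graft library was far above the highest SP/naive library, and the log2 fold change was 1.69 ± 0.18 (SE, edgeR adjusted p = 6.83e-14). The complex I gene mt-Nd1 was at 16483, 10062 and 11730.0 CPM against 5894, 4716 and 3654 CPM, again without overlap, with a log2 fold change of 1.42 ± 0.19 (SE, edgeR adjusted p = 9.09e-09). The log2 fold changes of the other 4 lay between 1.35 for mt-Co1, a catalytic subunit of complex IV, and 1.62 for mt-Nd4, a subunit of complex I. For mt-Nd5 the adjusted p rose from 0.00603 to 0.0944 without SP/naive replicate 3, to 0.113 with DESeq2, to 0.378 with the stricter filter and to 0.0713 with only the spleen and graft libraries. All 6 genes lost the call with the likelihood ratio test (edgeR adjusted p = 0.195 to 0.35), and mt-Co1 and mt-Nd2 also with the stricter filter (0.115 each).

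The other mitochondrial genes were not uniform. mt-Nd3 and mt-Nd6 were also above 0, at 1.40 and 0.74, without passing the test (edgeR adjusted p = 0.793 and 0.509). mt-Co2, mt-Co3 and mt-Atp6 were at 1.69 to 16.2 CPM in these 6 libraries, far below mt-Cytb, and mt-Atp8 had at most 0.275 CPM. Copies of mitochondrial sequence in the nuclear genome can share reads with these genes, so their levels are uncertain, and the share of pairs that mapped to several places was 10.4 to 12.9% in graft libraries against 8.23 to 9.08% in SP/naive libraries. Its part in the difference was not tested.

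Summed over the mitochondrial genes, graft Tregs spent 6.74, 4.33 and 5.30% of their gene counts on them and SP/naive Tregs 2.42, 2.33 and 1.81%. The means were 5.46 ± 1.21% and 2.19 ± 0.326% (SD, n = 3 each), and the difference of 3.27 percentage points had an exact two-sided permutation p of 0.1, the smallest that 3 libraries against 3 allow. SP/CD127hi Tregs lay at 2.71, 3.53 and 3.20% and SP/CD127-/lo Tregs at 4.35, 2.32 and 3.18%. Graft Tregs did not overlap SP/CD127hi Tregs (difference 2.31 points, exact permutation p = 0.1), whereas SP/CD127-/lo replicate 1 was level with graft replicate 2 (difference 2.17 points, exact permutation p = 0.2). The splenic subsets that were not Tregs lay at 1.89 to 3.46%, below every graft library. Taking the mitochondrial genes out of the table before the test left 25 calls, 13 higher and 12 lower, and all 25 were among the 33.

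**Figure D2:**
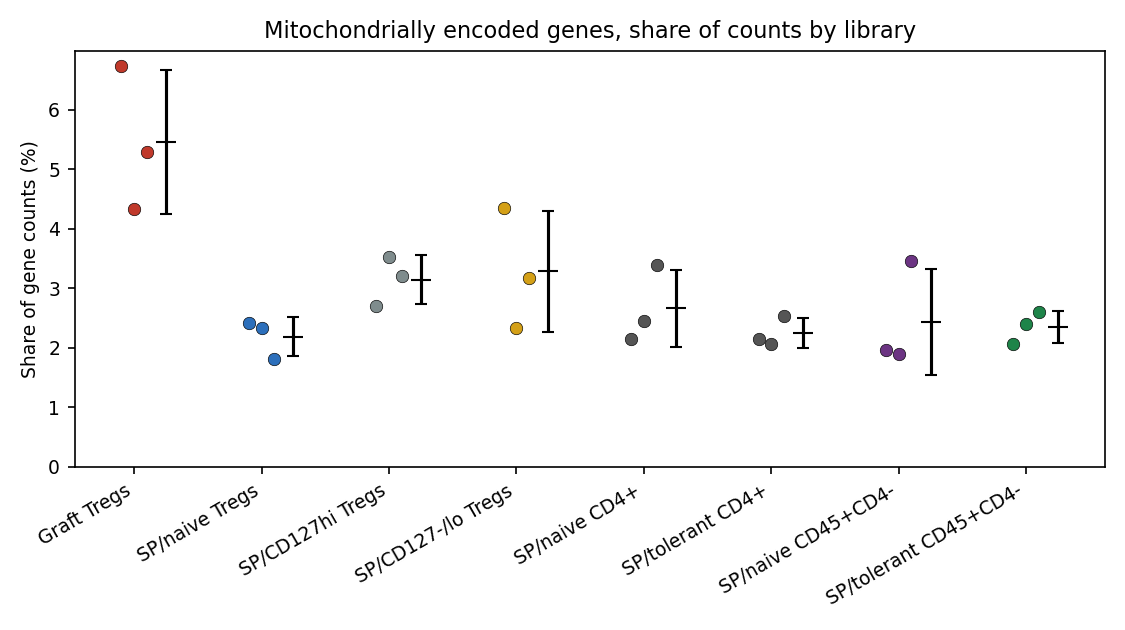
Percentage of each library's gene counts that fell on the mitochondrially encoded genes, with 1 point per library and the mean ± SD (n = 3) beside the points, for the 8 spleen and graft subsets. The graft libraries lie at 4.33 to 6.74% and the SP/naive libraries at 1.81 to 2.42%, and 1 SP/CD127-/lo library reaches 4.35%.

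Kap, the kidney androgen-regulated protein of proximal tubule cells, was the gene of kidney epithelium that passed. It had 422, 3232 and 45 counts in the graft libraries and 0 counts in all 3 SP/naive libraries. All graft libraries were above 0, but graft replicate 2 held most of the counts, and the pooled level was at least 390.4-fold higher (edgeR adjusted p = 3.96e-06, 0.112 without graft replicate 2 and 0.533 with DESeq2). Kap had at most 1 count in any SP/CD127hi or SP/CD127-/lo library and 0 counts in all 6 libraries of CD45+CD4- cells.

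The whole list of 20 proximal tubule genes was read beside Kap. Its summed level was 229, 1134 and 169 CPM in graft libraries against 3.03, 17.6 and 7.07 CPM in SP/naive libraries, and 4, 13 and 7 of its genes had more than 3 counts in the graft libraries against 0, 4 and 2. Akr1c21, a hydroxysteroid dehydrogenase, had 3, 230 and 358 counts in graft Tregs and 0 in SP/naive Tregs. Fxyd2, the gamma subunit of the sodium pump, had 62, 279 and 97 counts against 3, 0 and 0. The antioxidant enzyme Gpx3 had 206, 77 and 13 counts against 0, 11 and 2. The genes did not follow 1 order across the graft libraries, since Kap was highest in replicate 2, Akr1c21 in replicate 3 and Gpx3 in replicate 1. The CD45+CD4- libraries reached 143 to 246 CPM on this list through another gene, the protease Napsa, whose mean there was 178 CPM in naive and 157 CPM in tolerant mice, while it was at 0.271, 0 and 4.17 CPM in graft Tregs. None of the 19 genes besides Kap passed the test, and the median log2 fold change of the list was 2.99, or 1.14 when genes at 0 in 1 group were set to their bound. Markers of other nephron segments overlapped between the groups, at 137, 70.8 and 16.4 CPM in sum against 14, 70.4 and 57.8 CPM.

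Klrk1, the activating receptor NKG2D of natural killer (NK) cells and CD8+ T cells, had 205, 0 and 43 counts in graft Tregs and 0 in SP/naive Tregs. It was absent from graft replicate 2, and the pooled level was at least 26.3-fold higher (edgeR adjusted p = 0.00174). Its mean was 22.8 CPM in graft Tregs, 163 and 107 CPM in the CD45+CD4- cells of naive and tolerant mice, 41.0 and 43.4 CPM in their splenic CD4+ Foxp3- T cells, and 22 CPM in DLN/CD127hi Tregs. The list of 12 CD8+ T and NK cell genes summed to 484.5, 554 and 314 CPM in graft Tregs against 99.7, 115 and 187 CPM in SP/naive Tregs, without overlap. Most of this was Ccl5, a chemokine of effector T cells, at 219, 437 and 118 CPM against 6.33, 54.8 and 76.5 CPM (edgeR adjusted p = 0.0682), and Nkg7, a granule protein, at 136, 117 and 138 CPM against 60.8, 39.9 and 89.4 CPM (adjusted p = 0.782). The defining marker Ncr1 of NK cells had 0 counts in all 6 libraries, and Cd8a had at most 1. Cd8b1 and Gzmk were also among the most abundant genes of this list that did not pass, and their values are not given here.

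Ccl8, a monocyte chemoattractant made mainly by macrophages, had 78, 0 and 102 counts in graft Tregs and 1, 0 and 0 in SP/naive Tregs. Like Klrk1 it was absent from graft replicate 2, and the ratio was 178 (95% counting interval 31.5 to 7051), with an edgeR adjusted p of 0.044. Outside the graft, Ccl8 was highest in sorted DLN/CD127hi Tregs (mean 315 ± 269 CPM, SD, n = 3), above its mean of 17.2 CPM in graft Tregs, and it was at 0.102 and 0 CPM in the CD45+CD4- cells of naive and tolerant mice. Tissue and sequencing instrument differ together between the DLN and graft libraries and cannot be told apart. The call was lost without graft replicate 3 (adjusted p = 0.0813) and without SP/naive replicate 1, 2 or 3 (0.0641, 0.252 and 0.349). The list of 23 macrophage and monocyte genes overlapped between the groups, at 421, 378 and 916 CPM against 443, 179.7 and 253 CPM. Its median log2 fold change was -0.92, or 0 at the bounds, and 8 of its genes had 0 counts in every graft library, among them the defining markers Csf1r, Adgre1, Mrc1 and C1qa. The lysozyme gene Lyz2 had 243, 0 and 1432 counts in graft and 296, 78 and 43 in SP/naive Tregs. The part of tubule, NK, CD8+ T cell and macrophage RNA in the graft values was not tested beyond these levels.

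No gene passed on the lists for dendritic cells, neutrophils, endothelium, fibroblasts and mural cells, endocrine islet, exocrine pancreas or red cells. The neutrophil list did not overlap, at 53.6, 23.6 and 23.2 CPM against 0.275, 4.40 and 0 CPM. This was almost wholly Mmp9, a matrix metalloproteinase, with 198, 86 and 76 counts against 0, 9 and 0 (edgeR adjusted p = 0.414), while the defining markers S100a8 and S100a9 had 0 counts in every graft library. Endocrine islet genes had 57.7, 0.823 and 2.98 CPM in graft Tregs against 1.10, 10.1 and 23.7 CPM. The insulin genes Ins1 and Ins2 were at 0 in the graft libraries, where the islet cells were of porcine origin and the reads were aligned to the mouse genome.

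**Figure D3:**
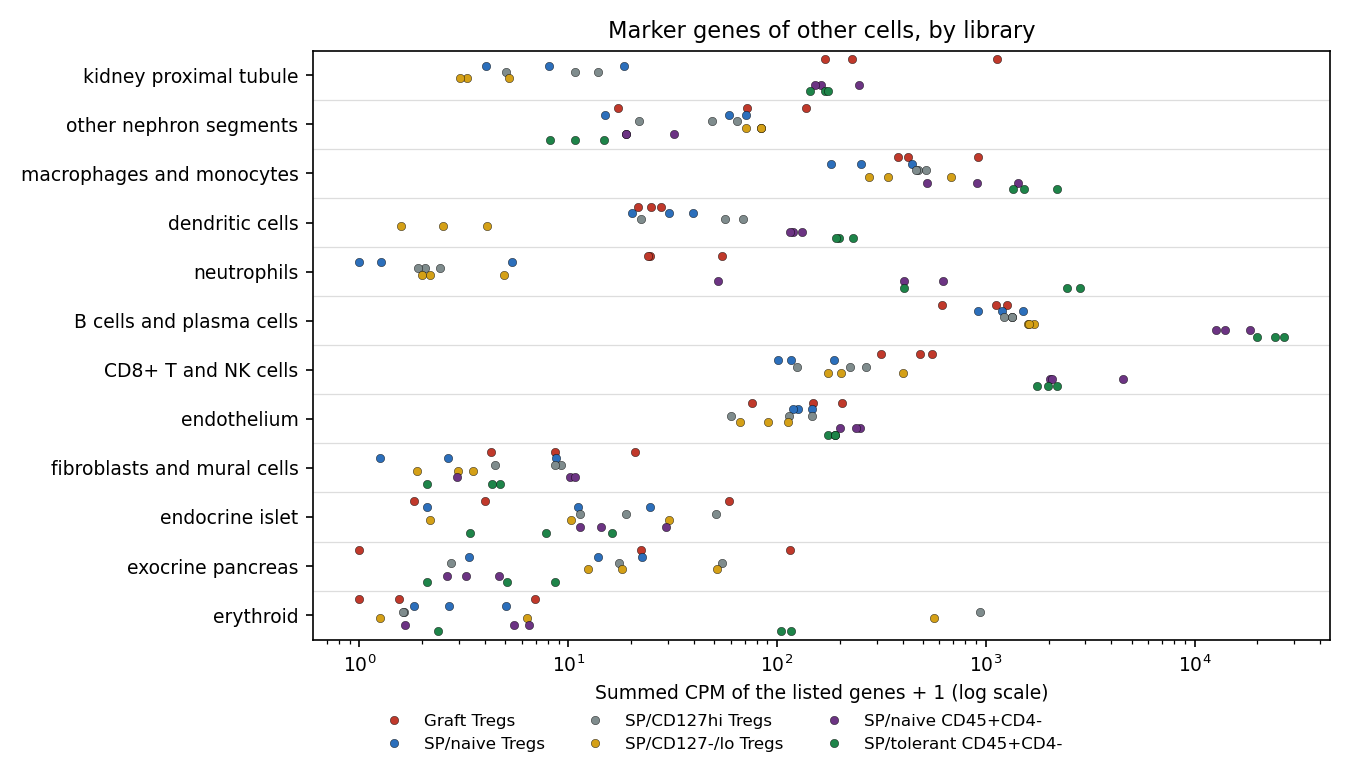
Summed CPM + 1 on a log axis of the marker lists of other cell types, with 1 point per library, for graft, SP/naive, SP/CD127hi and SP/CD127-/lo Tregs and for splenic CD45+CD4- cells. The graft points of the proximal tubule list (169 to 1134 CPM) lie above all SP/naive points (3.03 to 17.6 CPM), and those of the B cell and macrophage lists overlap them.

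The 14 lower genes fell into genes of B and plasma cells, 8 other annotated genes and the unnamed locus Gm10800. The B-lineage genes were Iglc2, Iglv1, Iglv2, Jchain and Ms4a1, that is lambda light chain segments, the joining chain of secreted IgM and IgA, and CD20. Iglc2 had 0 counts in all graft libraries and 44, 0 and 224 counts in SP/naive Tregs (at least 27.2-fold lower, edgeR adjusted p = 6.93e-09). Iglv1 had 210 and Iglv2 157 counts in SP/naive replicate 3 and 0 in the other 5 libraries, and Jchain had 25 counts there and 0 elsewhere. Ms4a1 had 39, 1 and 0 counts in SP/naive Tregs and 0, 0 and 1 in graft Tregs. These genes therefore rested on 1 or 2 SP/naive libraries each. The bounds were at least 21-fold for Iglv1, 15.7-fold for Iglv2 and 2.5-fold for Jchain, and the ratio for Ms4a1 was 40.6 (95% counting interval 6.87 to 1641), with edgeR adjusted p of 0.00325, 0.0406, 0.0479 and 0.00773. The adjusted p became 1 for Iglv1, Iglv2 and Jchain without SP/naive replicate 3 and for Ms4a1 without SP/naive replicate 1, and Iglv2 was also lost without any 1 graft library (0.123 to 0.146) and Jchain without graft replicate 1 or 2 (0.0724 and 0.0768). With only the spleen and graft libraries, Iglc2, Iglv1 and Iglv2 lost the call, and Iglv2 lost it also with the likelihood ratio test and with a replicate block. In CD45+CD4- cells of naive and tolerant mice the means were 1594 and 2341 CPM for Iglc2, 998 and 1621 CPM for Ms4a1, and 600 and 1206 CPM for Jchain. Iglv1 averaged 151 and 288 CPM there and Iglv2 36.8 and 72.6 CPM. Sorted DLN/CD127hi Tregs averaged 623 CPM for Iglc2, 583 CPM for Jchain, 179 CPM for Iglv2, 44.2 CPM for Iglv1 and 11.8 CPM for Ms4a1. The whole list of 17 B and plasma cell genes overlapped between the groups, at 616, 1265 and 1121 CPM in graft against 917, 1193 and 1500 CPM in SP/naive Tregs, with a median log2 fold change of -1.73, or 0 at the bounds. The part of B-lineage RNA in the SP/naive values was not tested.

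Ly86 encodes MD-1, a partner of the receptor RP105 on B and myeloid cells. It had 1, 0 and 1 counts in graft Tregs and 62, 106 and 8 in SP/naive Tregs. The groups did not overlap, and the summed level was lower in graft Tregs by a ratio of 89.2 (95% counting interval 24.3 to 742, edgeR adjusted p = 0.000146). Serpinb1a, an inhibitor of leukocyte proteases, had 0 counts in graft Tregs against 47, 31 and 16 (at least 10.9-fold lower, edgeR adjusted p = 0.0068). Adnp2, a zinc finger homeobox gene, had 0 counts against 74, 129 and 82 (at least 33.5-fold lower, edgeR adjusted p = 0.0458). Both genes were detected in every SP/naive library and in no graft library. Serpinb1a was lost without graft replicate 2 (adjusted p = 0.0597), and Adnp2 in 5 of the 6 fits that left out 1 library, all but the one without SP/naive replicate 1 (up to 0.194). In CD45+CD4- cells of naive and tolerant mice Ly86 averaged 410.4 and 579.9 CPM and Serpinb1a 129 and 221 CPM, against 18.3 and 9.16 CPM in SP/naive Tregs.

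Further genes were all but absent from graft Tregs. Iqsec1, an exchange factor for ARF proteins, had 0, 1 and 0 counts against 107, 45 and 81. Gcsh, a protein of the mitochondrial glycine cleavage system, had 0, 0 and 1 counts against 74, 32 and 227. Klrb1f, a C-type lectin receptor, had 0 counts against 6, 84 and 73, and Plek (pleckstrin) 0 against 57, 1 and 3, with means of 167 and 248 CPM in the CD45+CD4- cells of naive and tolerant mice. The transcript 5830468F06Rik had 2, 0 and 0 counts in graft Tregs against 109, 1 and 177. The ratio of summed levels was 236 for Iqsec1 (95% counting interval 42.0 to 9369.8), 338 for Gcsh (60.2 to 13374) and 145 for 5830468F06Rik (39.9 to 1207), and the bounds were at least 19.2-fold for Klrb1f and 6.64-fold for Plek. The edgeR adjusted p of these 5 genes lay between 0.0237 and 0.0472, and each was lost in 3 to 5 of the 6 fits that left out 1 library, graft replicate 2 among them for all 5. Gm10800 was the exception among the lower genes, since it was detected everywhere, at 289, 722 and 1482 CPM in graft and 810, 10637 and 197 CPM in SP/naive Tregs. Its log2 fold change of -2.22 ± 0.44 (SE, edgeR adjusted p = 0.00151) rested on SP/naive replicate 2 and was 0.72 without it (adjusted p = 0.580).

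Absence in graft Tregs was common outside the 14 genes. Of all genes tested, 232 (0.915%) had at most 3 counts in every graft library and more than 3 in every SP/naive library, whereas 16 (0.0631%) had the reverse pattern. Without TMM factors, a count of 3 was 0.721 to 0.841 CPM in graft and 0.781 to 1.10 CPM in SP/naive libraries. On the TMM-scaled CPM used elsewhere, 1 count was 0.271, 0.274 and 0.298 CPM in graft replicates 1, 2 and 3. The libraries came from amplified cDNA of few sorted cells. For 10 of the 14 lower genes (71.4%) the mean in CD45+CD4- cells exceeded that in SP/naive Tregs, as it did for 54.3% of all genes tested. For 4 of the 19 higher genes (21.1%), Klrk1, Cd74, Ciita and Ly6c2, the CD45+CD4- mean exceeded that in graft Tregs, as it did for 59.5% of all genes. The part of detection and of other cells in these calls was not tested.

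The same 33 genes were then read in graft Tregs against the 2 splenic subsets of tolerant mice, which shared transplantation and treatment with the graft donors. These comparisons used the same 3 graft libraries and are given side by side. Graft and spleen libraries of tolerant mice may also share animals, since the number of recipients used does not allow separate pools for every library, and no label pairs them. Graft Tregs differed in 26 genes from SP/CD127hi Tregs (0.103% of the genes tested) and in 21 from SP/CD127-/lo Tregs (0.0829%). With only the compared libraries 1 and 3 genes were called, and none of these calls held under the stricter filter, where edgeR called 0 genes (1363 and 1167 at an unadjusted p under 0.05, and DESeq2 253 and 184 with the usual filter). Without SP/CD127-/lo replicate 3 the 21 became 8. Of the 19 genes higher than in SP/naive Tregs, 8 were also called against SP/CD127hi and 8 against SP/CD127-/lo Tregs. The 6 called in all 3 comparisons were mt-Cytb, mt-Nd1, mt-Nd2, Kap, Klrk1 and Ccl8. For mt-Cytb the log2 fold change was 1.06 against SP/CD127hi (edgeR adjusted p = 3.46e-05) and 0.74 against SP/CD127-/lo Tregs (adjusted p = 0.0421). Ikzf2 and AW112010 were called also against SP/CD127hi, and Id2 and mt-Nd4 also against SP/CD127-/lo Tregs. The other 9, among them Ifngr1, Rgs2, S100a10, Fth1 and Cd74, passed against SP/naive Tregs and in neither tolerant comparison. Their fold changes were above 0 in both tolerant comparisons with the exception of Ly6c2, which was at -0.05 against SP/CD127-/lo Tregs. Of the 14 lower genes, 7 were called against SP/CD127hi and 4 against SP/CD127-/lo Tregs, and those called in all 3 comparisons were Iglc2, Gcsh, Plek and Jchain. Against SP/CD127-/lo Tregs 8 of the 14 had a negative fold change. Of the other 6, Serpinb1a, Iglv1 and Iglv2 had 0 counts in graft and SP/CD127-/lo Tregs alike, Ly86 and Ms4a1 had at most 1 count in any library of these subsets, and Gm10800 had a log2 fold change of 0.50. Whether the fold changes differed between the reference subsets was not tested.

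**Figure D4:**
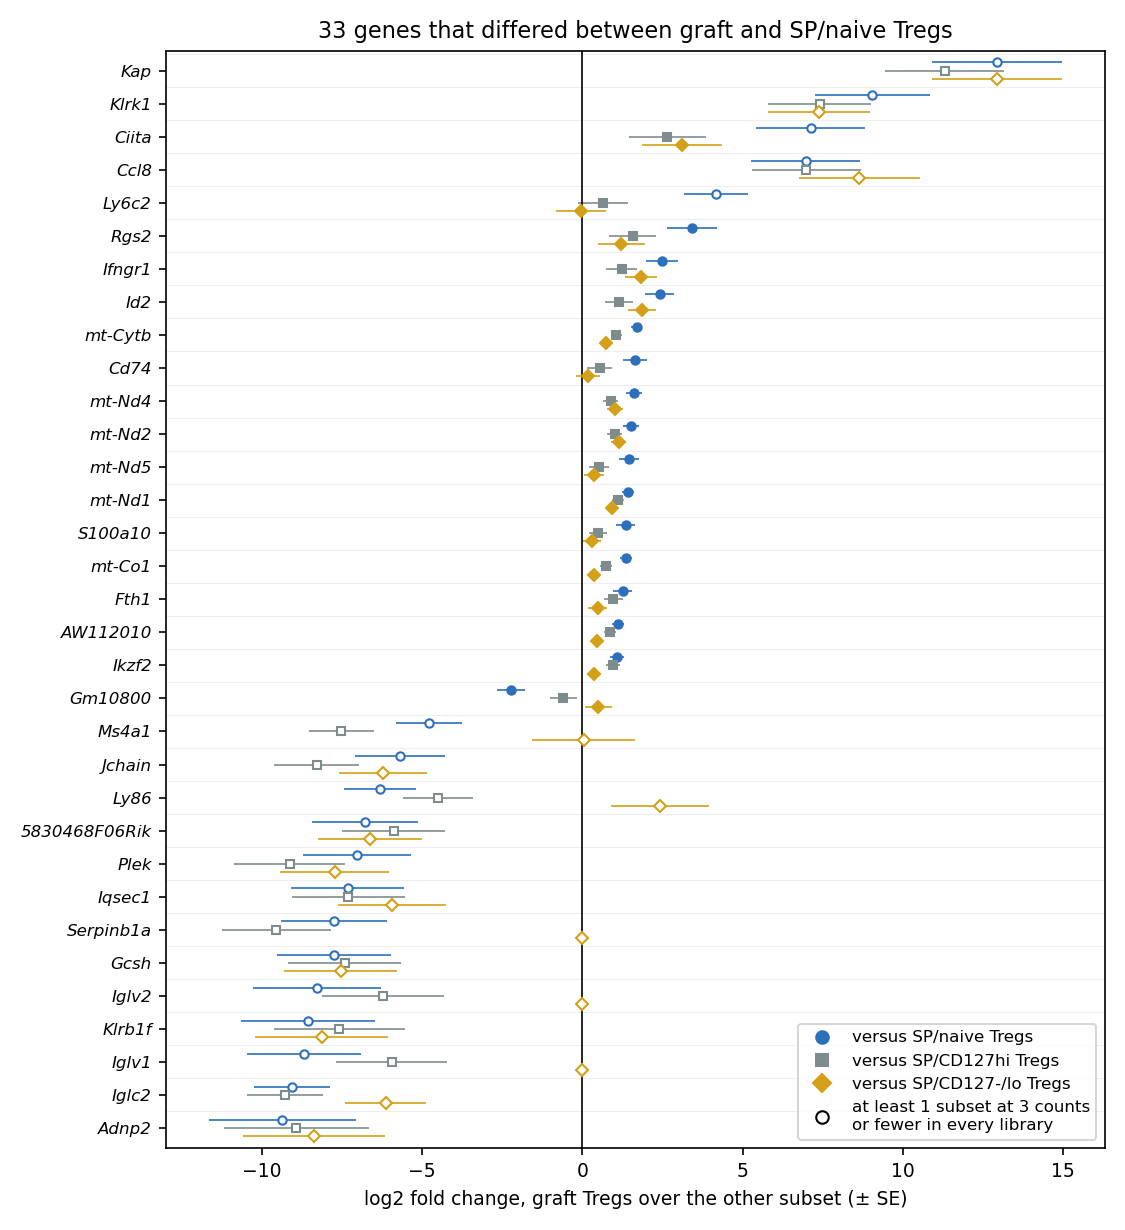
Log2 fold change with its SE of the called genes in graft Tregs against SP/naive, SP/CD127hi and SP/CD127-/lo Tregs, where open symbols mark comparisons with at least 1 subset at 3 counts or fewer in every library, whose fitted size depends on the prior count. Ifngr1 lies at 2.49, 1.23 and 1.83, and mt-Cytb at 1.69, 1.06 and 0.74.

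Gene lists for Treg states were read with the same test, in which 0.13% of all genes tested were called. Of 12 Treg identity genes, 1 was higher (Ikzf2, which was lost without graft replicate 2 and under the 5 settings given with it) and none was lower, with a median log2 fold change of 0.38. The median of this list was 0.26 against SP/CD127hi and 0.05 against SP/CD127-/lo Tregs. The inhibitory receptor Ctla4 was at 935, 486 and 704 CPM in graft against 499, 348 and 599 CPM in SP/naive Tregs, and the costimulatory receptor Tnfrsf18 (GITR) at 416, 734 and 356 against 331, 138 and 507 CPM. Both overlapped between the groups, as did the folate receptor Izumo1r at 325 to 531.5 against 389.9 to 604 CPM.

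Among 14 transcription regulators of tissue Tregs, Id2 alone passed, with a median log2 fold change of 0.65, or 0.52 at the bounds. Against SP/CD127hi Tregs the median of these regulators was -0.05 with 7 genes above 0, and against SP/CD127-/lo Tregs it was 0.57 with 9. Maf, which controls IL-10 and effector programs, was at 914, 1259 and 1159.8 CPM in graft against 553, 585 and 444 CPM in SP/naive Tregs, and Rora, a nuclear receptor of tissue lymphocytes, at 281, 265 and 406 against 86.2, 149 and 111 CPM. The groups did not overlap for either gene, and neither passed (log2 fold changes 1.07 and 1.46, edgeR adjusted p = 0.38 and 0.662). Gata3 was at 154 to 273 CPM in graft and 136 to 147 CPM in SP/naive Tregs (adjusted p = 0.955). Of 14 cytokine and alarmin receptors, Ifngr1 alone passed, and the median was 0.30. Their median was -0.21 against SP/CD127hi and 0.30 against SP/CD127-/lo Tregs. Il7r, which encodes CD127, was at 1165, 694 and 739 CPM in graft against 627, 581 and 422 CPM in SP/naive Tregs, without overlap (log2 fold change 0.67, edgeR adjusted p = 0.686), and the IL-2 receptor chain Il2rb was lower in value, at 170.4 to 245 against 306 to 384 CPM (-0.78, adjusted p = 0.793).

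The list of 19 genes for tissue homing and retention had a median log2 fold change of 1.13 with 14 genes above 0, and Rgs2 was the gene that passed. Against SP/CD127hi Tregs the median of this list was 0.11 with 10 genes above 0, and against SP/CD127-/lo Tregs it was 0.52 with 15. Rgs1, a relative of Rgs2 that also dampens chemokine receptor signals, was at 1368, 1051 and 673 CPM against 648, 193 and 557 CPM, and S100a6 at 532, 618 and 630.1 against 245, 255 and 314 CPM. Neither overlapped and neither passed (log2 fold changes 1.14 and 1.13, edgeR adjusted p = 0.387 and 0.414). The chemokine receptor Cxcr6 was at 48.7, 109 and 6.85 CPM in graft and 32.5, 15.6 and 13.9 CPM in SP/naive Tregs, with overlap (adjusted p = 0.793). None of the 14 genes of lymphoid homing and the resting state passed, and their median was -0.59 with 2 genes above 0. It was -0.54 against SP/CD127hi and -0.20 against SP/CD127-/lo Tregs. Foxp1, a factor of quiescent lymphocytes, had a log2 fold change of -0.71 (edgeR adjusted p = 0.686).

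No gene passed among 21 suppressive and effector molecules, whose median was 1.12 with 15 genes above 0. Against SP/CD127hi Tregs their median was 0.40 and against SP/CD127-/lo Tregs 0.08, with 12 genes above 0 in each. The galectin gene Lgals1 was at 1039, 822 and 835 CPM in graft against 388, 273 and 394 CPM in SP/naive Tregs, and the costimulator Icos at 1095, 1321 and 697 against 557, 371 and 559.9 CPM. Every graft library was above every SP/naive library for both, without passing (log2 fold changes 1.35 and 1.07, edgeR adjusted p = 0.257 and 0.353). Of 20 interferon gamma response genes, Ciita passed, and the median was 0.34. It was 0.03 against SP/CD127hi and 0.14 against SP/CD127-/lo Tregs. The class I light chain B2m lay at 15667 to 24454 CPM against 11377 to 15016 CPM (log2 fold change 0.56 ± 0.15 SE, edgeR adjusted p = 0.0798).

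No gene passed among 12 T cell genes, whose median was 0.13, or among 16 immediate early and heat shock genes, a sign of handling stress, whose median was 0.00. The heat shock gene Hsp90aa1 was at 236 to 267 CPM in graft and 225 to 269.5 CPM in SP/naive Tregs. The T cell receptor constant gene Trac was at 1133, 1233.5 and 968 CPM against 389, 313 and 676 CPM, the kinase Lck at 1246 to 1396 against 1267 to 1388 CPM, and neither passed.

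Of 30 genes taken from those that the study itself names for graft Tregs, 9 were higher (0.075% of all genes tested were) and none was lower, with a median of 2.59 (2.49 at the bounds) and 29 genes above 0. This list was chosen on these same samples, so its count is not independent evidence of its direction. It leaves out other genes that the study names for lymphoid CD127hi Tregs, graft Tregs or both. Among these are Serpinb1a, Jchain, Iglc2, Iglv1 and Iglv2, which were called lower in graft than in SP/naive Tregs here. The chemokine receptor Ccr2, which guides cells to inflamed tissue, was at 291, 367 and 246 CPM in graft against 19.5, 48.0 and 23 CPM in SP/naive Tregs. The groups were far apart, and yet the log2 fold change of 3.32 ± 0.87 (SE) had an edgeR adjusted p of 0.0798. Fgl2, a secreted suppressive molecule, was at 189, 486 and 253 CPM against 13.8, 91.0 and 40.2 CPM, also without overlap (log2 fold change 2.68, adjusted p = 0.336). In the tolerant comparisons 5 genes of this list passed against SP/CD127hi (0.103% of all genes tested) and 10 against SP/CD127-/lo Tregs (0.0829% of all genes). The medians there were 1.13 with 25 genes above 0 and 2.65 with 29.

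**Figure D5:**
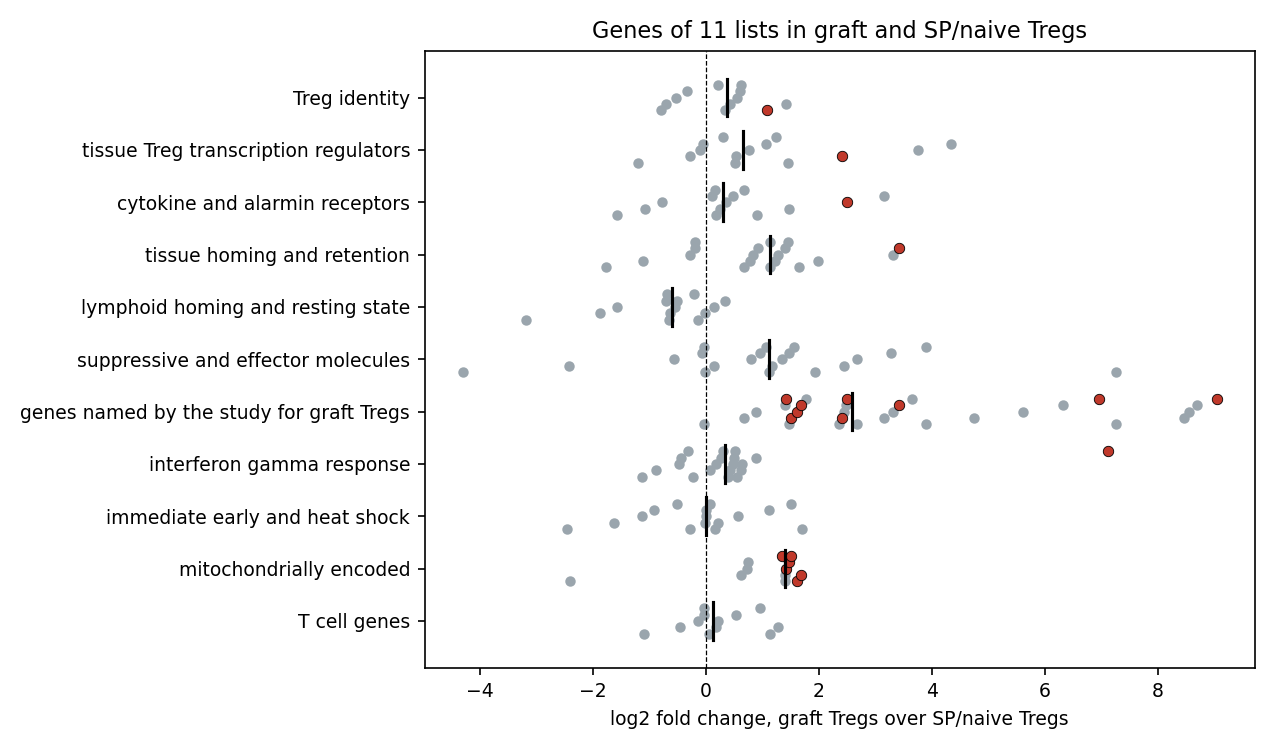
Log2 fold changes of the genes of each Treg state list in graft against SP/naive Tregs, with 1 point per gene, the list median as a bar and red points for an adjusted p under 0.05. The list medians run from -0.59 for lymphoid homing to 2.59 for the genes the study names, with 1.13 for tissue homing and retention.

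Close to the threshold, Klrb1f and Jchain were the last genes inside it, at adjusted p of 0.0472 and 0.0479. The first genes outside were Gm13546, with 0 counts in graft against 42, 34 and 57 in SP/naive Tregs (edgeR adjusted p = 0.0507), and Blnk, a B cell adaptor, with 0, 2 and 64 counts against 0, 2 and 0 (adjusted p = 0.0677). Of the 33 calls, 9 held in all 6 fits that each left out 1 of the compared libraries, namely mt-Cytb, mt-Nd1, mt-Co1, mt-Nd4, mt-Nd2, Id2 and Klrk1 among the higher and Iglc2 and Ly86 among the lower genes. Of these 9, mt-Cytb, mt-Nd1, mt-Nd4 and Id2 lost the call under 1 other setting, the likelihood ratio test, and the other 5 under 2 or 3 settings. Ifngr1 also lost it with the likelihood ratio test, S100a10 with that test and the stricter filter, and Rgs2 with both of these and with only the compared libraries. The 5 settings named for Ikzf2 and AW112010 also ended the calls of Fth1, Cd74, Ly6c2 and Ccl8 among the higher and of Gm10800, Ms4a1, Plek and Jchain among the lower genes.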

How the data were processed

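Sorted cells were profiled with SMART-Seq v4 and Nextera XT, and spleen and graft libraries were sequenced as 75 bp pairs on a NextSeq 500. The DLN libraries were run on a MiSeq, per the methods, and had 844039 to 1935323 counts on genes. Naive lymph node donors were female. The model held no term for the instrument. Per the methods, the authors' pipeline was Trim Galore for trimming, STAR for alignment (mm10 plus the EGFP sequence) and HTSeq for counting. The deposited counts are laid out as the per-gene output of STAR. Versions are not given in the sources used here. The deposited values are raw counts, and the column over both strands was used because the kit does not mark strand, so overlapping and antisense genes share reads.

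Symbols and GRCm38 positions came from GENCODE vM21. Genes reaching 1 CPM in any of the 33 libraries were kept, and a model with 1 mean per subset (11 subsets) was fitted to all libraries with TMM factors and tested with edgeR 4.0.16 (quasi-likelihood test, Benjamini-Hochberg adjustment over all genes tested, threshold 0.05). The pooled spread of all subsets thus entered each test. The SE of a log2 fold change was its absolute value over the square root of the test's F statistic. It therefore carries this pooled spread and not that of the compared libraries alone. A subset with at most 3 counts in every library was taken as undetected. "At least" folds set 0 to 3 counts per library, and counting intervals are exact 95% intervals that cover counting error only. Shares were tested with exact permutation tests.

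Named genes were all called genes and, per list, the genes that passed and the 4 most abundant, together with defining markers, and some genes of the lists are not reported here. The members and lists were chosen with earlier results of these data known. Alternatives were the likelihood ratio test, DESeq2 1.42.0, RLE factors, no filter, at least 10 counts in at least 3 libraries, only the compared libraries, the 24 spleen and graft libraries, a replicate block, leaving out each library and, added after seeing the data, no mitochondrial genes. R 4.3.3, Python 3.11.15 and scipy 1.17.1 were used, and the models were tested on simulated counts.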

Additional observations from a re-analysis of the deposited data

How the results depend on the processing

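The 33 calls against SP/naive Tregs became 186 with DESeq2 (33 higher, 153 lower, 21 of the 33 shared), 59 without a filter (33 shared), 6 with at least 10 counts in at least 3 libraries (all higher, 6 shared), 12 with only the compared libraries (all higher, 10 shared) and 61 with a replicate block (38 higher, 23 lower, 32 shared). They became 27 with the likelihood ratio test (5 higher, 22 lower, 10 shared), 35 with the 24 spleen and graft libraries (13 higher, 22 lower, 15 shared), 40 with RLE factors (33 shared), 25 without mitochondrial genes (25 shared) and 26 to 43 when 1 library was left out (17 to 26 shared). The 26 against SP/CD127hi Tregs became 40 with the likelihood ratio test, 253 with DESeq2, 52 without a filter, 1 with only the compared libraries, 50 with the replicate block, 25 to 42 when 1 library was left out and 0 with edgeR under the stricter filter (1363 at an unadjusted p under 0.05). The 21 against SP/CD127-/lo Tregs became 184 with DESeq2, 33 without a filter, 3 with only the compared libraries, 40 with the replicate block, 8 to 28 when 1 library was left out (8 without SP/CD127-/lo replicate 3) and 0 with edgeR under the stricter filter (1167 at an unadjusted p under 0.05). The difference of the mitochondrial share was 2.63 to 3.83 points when 1 library was left out and 2.05 points as a share of uniquely mapped pairs (exact permutation p = 0.1). Its paired permutation p with the replicate block was 0.25, the smallest that 3 pairs allow. No label pairs the libraries, and graft and SP/naive libraries come from different animals. The deviations of same-numbered graft and SP/naive libraries correlated at -0.03, -0.10 and -0.11. Those with SP/CD127hi libraries correlated at 0.01, 0.06 and 0.04 (each graft library highest with its own number) and those with SP/CD127-/lo libraries at -0.02, -0.10 and 0.03. Correlations this small cannot decide whether libraries share animals. When 1 library was left out, the log2 fold change of Gm10800 ran from -2.94 to 0.72 (reversed without SP/naive replicate 2) and that of Ly6c2 from -2.97 (reversed without graft replicate 1) to 5.12. Of 489 values of the 33 called genes under the alternatives, 320 kept direction and call, 167 lost the call and 2 reversed, and the cause was not tested. At this depth a level under 3 counts could not be told from 0. In graft libraries 3 counts were 0.721 to 0.841 CPM without TMM factors. With these factors, 1 count was 0.271, 0.274 and 0.298 CPM in graft replicates 1, 2 and 3.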

Other observations

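Some genes passed the test between graft Tregs and splenic Tregs of tolerant mice and did not pass it against SP/naive Tregs. They are named here because of their values. The nuclear long noncoding RNA Malat1 was at 45886, 34734 and 24011 CPM in graft Tregs, at 23208, 19264 and 15553 CPM in SP/CD127hi Tregs and at 5803, 9628 and 13397 CPM in SP/CD127-/lo Tregs. Its log2 fold change in graft Tregs was 0.85 ± 0.15 against SP/CD127hi and 1.86 ± 0.15 against SP/CD127-/lo Tregs (SE, edgeR adjusted p = 9.3e-05 and 4.38e-23). The SP/naive libraries, at 77263, 35033.5 and 30484 CPM, overlapped the graft libraries, and the fold change there was -0.45 (adjusted p = 0.33).

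Cxcr6 had 180, 398 and 23 counts in graft Tregs, 8, 83 and 0 in SP/CD127hi Tregs and 0 in all 3 SP/CD127-/lo libraries (edgeR adjusted p = 2.35e-05 against the last). The complement receptor gene Cr2 of B cells, also higher than in SP/CD127-/lo Tregs, rested on graft replicate 3, with 0, 0 and 234 counts. Ifngas1, an RNA encoded near Ifng, had 104, 1 and 117 counts in graft Tregs and 1, 0 and 0 in SP/CD127hi Tregs (edgeR adjusted p = 0.0113), while the SP/naive libraries had 40, 41 and 54. Among genes lower than in SP/CD127hi Tregs, Tmem185a had 0 counts in every graft library against 157, 74 and 194 in SP/CD127hi and 45, 34 and 77 in SP/naive Tregs, also without overlap (edgeR adjusted p = 0.0684 against SP/naive Tregs).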
